A study of Mus musculus with 2 samples.

Results

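The immunoglobulin-rich spots of the NCD liver section were the 105 of 2107 spots with 3000 or more unique molecular identifiers (UMIs, each standing for 1 captured transcript) selected on the share of all UMIs that Igkc, Jchain, Iglc1 and Iglc2 together took. They were the top 5% of that ranking, and they came from the 3692 spots over tissue in this section, of 7286 spots in both sections of the study. They were set against the 1053 lowest-ranked spots of the same 2107, called lower-ranked spots here. None of those held a UMI of the 4 rule genes, because 1482 of the 2107 spots had none, and file order decided which of these were taken. What is reported below is every other gene, as pooled counts per 1000000 UMIs (CPM).

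Plasma cells are the end stage of the B cell lineage and secrete antibody. An antibody joins heavy chains, whose constant gene sets its class (Ighm for IgM, the Ighg genes for IgG, Igha for IgA), with light chains of the kappa type (Igkc) or the lambda type (Iglc1, Iglc2, Iglc3), and J chain (Jchain) links antibody units into the polymeric IgM and IgA. A single plasma cell normally uses a single class and a single light chain type. In the liver, lymphocytes are few against hepatocytes and are found in portal tracts, among other places. In a portal tract the portal vein, hepatic artery and bile duct run together in connective tissue.

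Spatial transcriptomics (ST) was measured on 10x Visium slides, which capture polyadenylated RNA from a tissue section on barcoded spots that each cover a small region of several cells. Both sections were frozen liver cut at 10 µm, from male C57BL/6J mice bought at 5 weeks of age. One came from 1 mouse on a normal chow diet (NCD) and the other from 1 mouse on a high-fat diet (HFD) that was fed for 14 weeks to induce fatty liver disease. In the 8 weeks of intervention that followed, mice of both groups were given distilled water by mouth and no drug. Because each diet has 1 section, nothing was tested. The 95% intervals given are exact and describe counting error alone, not the spread of mice or slides, and spots of a section are not replicates. The deposited labels also name the samples as immune or hematopoietic stem cells, whereas 10 hepatocyte genes, Alb among them, took 124103 CPM in the immunoglobulin-rich spots and 133323 CPM in the lower-ranked spots. The sections held 29037988 UMIs (NCD) and 72118803 UMIs (HFD) over tissue, with medians of 4188 and 18549 UMIs per spot.

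Depth was close between the 2 sets of NCD spots. The immunoglobulin-rich spots held between 3042 and 39899 UMIs with a median of 7580, against a median of 7949 in the lower-ranked spots, and medians of 2106 and 2095 genes per spot. They pooled 1064276 UMIs against 11347485. Mitochondrial genes took 7.44% of UMIs in the immunoglobulin-rich spots and 8.65% in the lower-ranked spots. The 5 red blood cell genes moved with the choice of spots, at 10920 CPM against 6554 CPM, and their part in the results was not tested.

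The light chain genes are shown first because the choice of spots, and the makeup of the richest ones, rests on telling them apart. The 3 lambda constant genes lie on chromosome 16, on the minus strand of GRCm38. The last 150 bases of each annotated coding sequence follow, 5′ to 3′ as transcribed, with capitals at the 55 positions where the genes do not all have the same base (GRCm38 genome sequence from RefSeq, gene models from GENCODE M21).
Iglc1 chr16:19061755-19061904: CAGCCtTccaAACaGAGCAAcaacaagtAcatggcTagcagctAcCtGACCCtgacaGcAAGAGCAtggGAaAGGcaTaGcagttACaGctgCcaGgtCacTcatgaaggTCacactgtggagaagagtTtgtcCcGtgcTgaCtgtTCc
Iglc2 chr16:19198539-19198688: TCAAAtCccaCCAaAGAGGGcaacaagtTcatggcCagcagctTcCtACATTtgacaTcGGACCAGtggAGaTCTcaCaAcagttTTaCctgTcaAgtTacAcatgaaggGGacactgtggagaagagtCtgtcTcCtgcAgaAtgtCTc
Iglc3 chr16:19065368-19065517: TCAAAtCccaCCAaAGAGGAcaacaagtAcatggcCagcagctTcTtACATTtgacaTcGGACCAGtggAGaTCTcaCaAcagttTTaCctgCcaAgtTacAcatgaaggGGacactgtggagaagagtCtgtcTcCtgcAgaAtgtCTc
Iglc1 was identical to Iglc2 at 96 and to Iglc3 at 98 of these 150 positions, whereas Iglc2 and Iglc3 were identical at 146. Over the aligned coding sequence Iglc2 and Iglc3 shared 96.5% of bases and Iglc1 shared 74.8% with Iglc2. The split of UMIs between Iglc2 and Iglc3 is therefore uncertain, while Iglc1 differs from both at many positions. The kappa constant gene Igkc lies at chr6:70726435-70726966, Jchain at chr5:88519809-88527891, and the heavy chain constant genes named here between the start of Igha and the end of Ighm at chr12:113254830-113422730.

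The 4 genes that chose the spots are given as a description. The immunoglobulin-rich spots held 3260 UMIs of them: 2201 of Iglc1, 733 of Igkc, 303 of Jchain and 23 of Iglc2. Each spot held between 1 and 2000 such UMIs with a median of 5, so that 64 of the 105 held 1 to 5 and 19 rested on 1 UMI, while 14 held over 20. At the threshold, the last spot inside had 4 UMIs of the rule genes in 16332 (244.9 CPM) and the first outside had 3 in 12266 (244.6 CPM). The signal was concentrated in very few spots. The richest spot had 2000 rule UMIs in 8359, 23.9% of its RNA, and alone held 61.3% of the rule UMIs of the 105 spots. The spot ranked 2 had 178 in 5459 and the spot ranked 3 had 189 in 7257, and the 10 richest together held 81.4%.

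**Figure D1:**
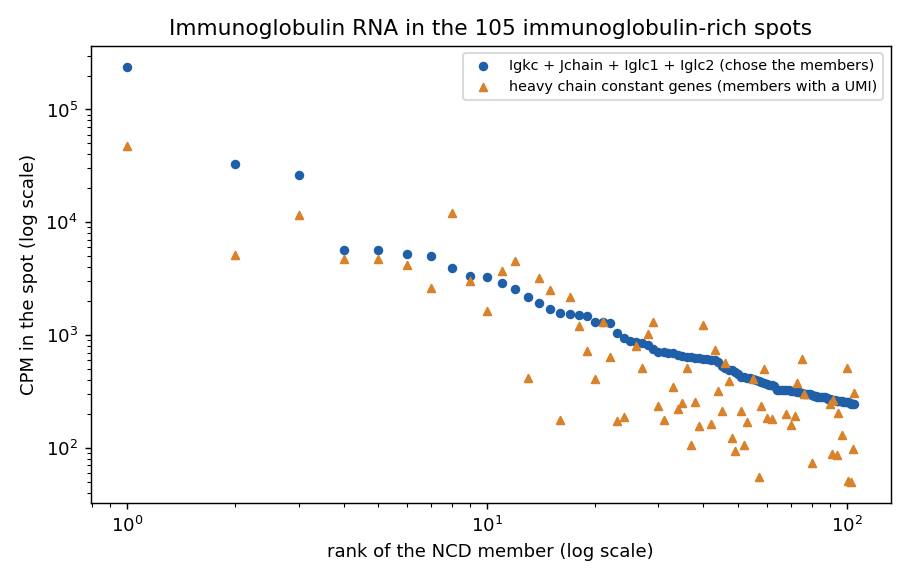
CPM of the 4 rule genes (circles) and of the summed heavy chain constant genes (triangles, for members with a heavy chain UMI) in each of the 105 immunoglobulin-rich NCD spots, against the spot's rank, both axes on a log scale. The first spot stands at 239263 CPM, while the median spot is at 421.5 CPM.

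The richest spot was dominated by 1 lambda gene. It held 1797 UMIs of Iglc1, 370 of Ighm, 160 of Jchain, 38 of Igkc, 16 of Ighg2c, 7 of Igha and 5 of Iglc2. All immunoglobulin genes and Jchain made up 28.7% of its UMIs, beside 196 UMIs of Alb, the albumin gene of hepatocytes. It sets the light chain balance of the whole group. Lambda genes took 75.3% (73.7 to 76.8, Clopper-Pearson) of light chain UMIs in the 105 spots, 38.3% (35.5 to 41.2) without the richest spot and 26.3% (23.3 to 29.5) without the 3 richest. Variable region genes were almost absent: of 346 listed, 3 had a UMI in the immunoglobulin-rich spots, 6 UMIs in all.

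Heavy chain constant genes had no part in the choice of spots and were far higher in them. Their sum was 1202 UMIs (1129 CPM) in the immunoglobulin-rich spots and 197 UMIs (17.4 CPM) in the lower-ranked spots, a log2 ratio of 6.02 (5.81 to 6.25). The 4 heavy chain genes with 50 or more UMIs over both groups were each at least 2-fold higher, Ighg2b having passed that minimum only through its UMIs in the immunoglobulin-rich spots, where 3.53% of the 8600 genes compared were (304 genes), the median heavy chain gene standing at a log2 ratio of 5.72 and the median of all genes compared at 0.07. Ighm had 540 against 58 UMIs, a log2 ratio of 6.63 (6.24 to 7.05). Ighg2c had 277 against 51 (5.86, 5.42 to 6.32), Igha 239 against 55 (5.53, 5.11 to 5.98) and Ighg2b 117 against 26 (5.58, 4.96 to 6.26). Ighg3 had too few UMIs to be compared by that rule, 27 against 2. Ighd had 2 UMIs in the immunoglobulin-rich spots, and Ighg1 and Ighe had 0, which allows up to 2.82 CPM each.

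These sums also hang on single spots. Without the richest spot the log2 ratio of Ighm was 4.98 (4.54 to 5.43) and that of the heavy chain sum 5.46, and without the 10 richest the sum stood at 4.69. Of the 105 spots, 73 held a heavy chain UMI and 32 held none. In the lower-ranked spots 160 of 1053 spots (15.2%) held one, mostly a single UMI (132 spots) and never more than 5. The 64 immunoglobulin-rich spots with 1 to 5 rule UMIs held 72 heavy chain UMIs, a log2 ratio of 3.14 (2.73 to 3.53) to the lower-ranked spots, against 6.78 (6.56 to 7.0) in the 41 spots with more.

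Within a spot, heavy chain UMIs mostly came from 1 class. This was asked of the 21 immunoglobulin-rich spots with 10 or more heavy chain UMIs, which held 86.4% of all heavy chain UMIs of the 105 spots. In 16 of these 21 spots at least 90% of the heavy chain UMIs came from 1 gene, and in 12 all of them did. Over the 105 spots pooled, by contrast, Ighm made up 44.9%, Ighg2c 23%, Igha 19.9% and Ighg2b 9.73%. Igha led in 7 of the 21 spots, Ighm in 6, Ighg2c in 6 and Ighg2b in 2. One light chain type made up at least 90% of light chain UMIs in 17 of them, kappa leading in 16 and lambda in 5, and 15 spots passed 90% for both chains. The light chain genes helped to choose the spots, so their part of this is a description.

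Single spots show the pattern. The spot ranked 6 held 50 Igha UMIs of 50 heavy chain UMIs with 51 of Igkc, 0 of any lambda gene and 12 of Jchain. The spot ranked 5 held 15 of Igha with 16 of Iglc1 and 0 of Igkc. The spot ranked 8 held 72 of Ighg2c with 21 of Igkc, and the spot ranked 11 82 of Ighg2b with 57 of Igkc. The spot ranked 15 held 32 of Ighm with 19 of Igkc. Other classes were at 0 in all 5 of these spots.

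The 5 exceptions were spots with several classes, ranked 2, 3, 4, 26 and 46. The spots ranked 2 and 3 held Ighm, Ighg2c and Igha together (12, 12 and 4 UMIs, and 4, 54 and 12 UMIs), with 42 and 71 UMIs of Igkc beside 120 and 99 of Iglc1. In the spot ranked 3 Ighg3 added 14 UMIs. Reads shared between the closely related Ighg2b, Ighg2c and Ighg3 could be split by the counting, and that was not checked here.

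**Figure D2:**
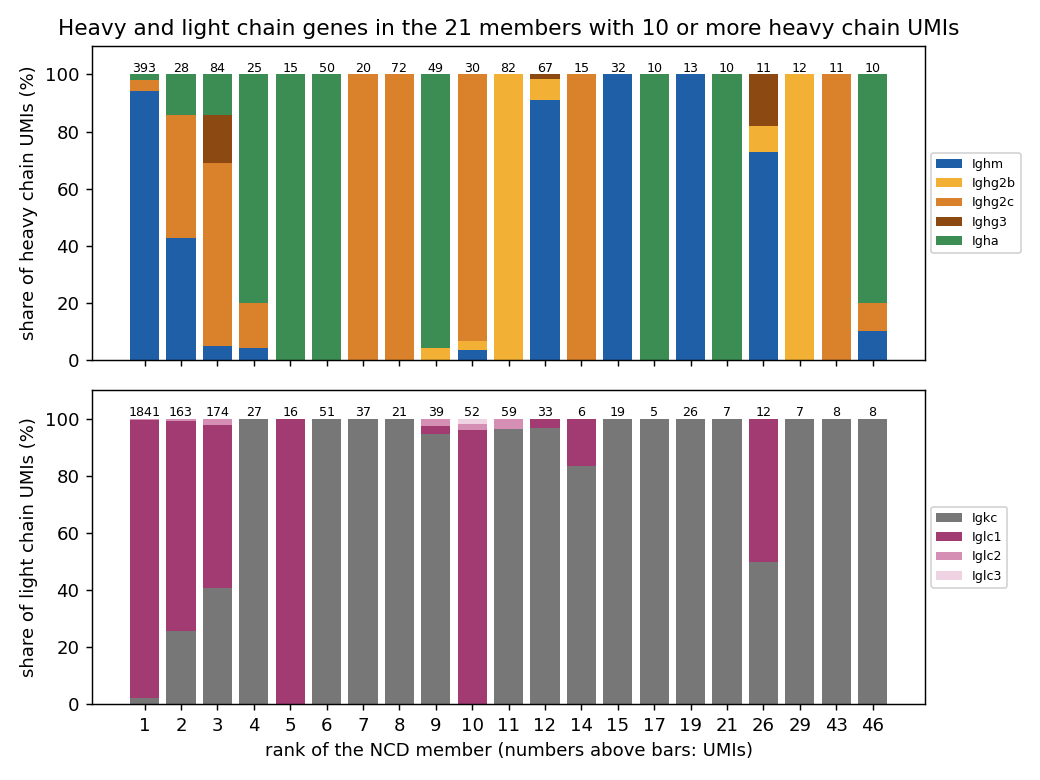
Share of each heavy chain gene (upper bars, %) and light chain gene (lower bars, %) in the 21 immunoglobulin-rich NCD spots with 10 or more heavy chain UMIs, by rank, with the number of UMIs above each bar. Most upper bars have 1 colour: in 16 of 21 spots 1 heavy chain gene made up at least 90%.

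Jchain, itself a rule gene, is described here by the leading class of these 21 spots. It reached 22.5 UMIs per 100 heavy chain UMIs over the 7 spots led by Igha (10.0 to 30.6 per spot) and was present in all 7. Over the 8 spots led by an Ighg gene it reached 11 (0 to 30.0). Over the 6 spots led by Ighm it reached 33.8, but 15.9 without the richest spot. The ranges of the 3 sets overlapped.

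Other genes of plasma cells were near the limit of detection or were not particular to these spots. Mzb1, a chaperone-associated protein of the plasma cell secretory pathway, had 13 UMIs in 7 immunoglobulin-rich spots against 3 in the lower-ranked spots, a log2 ratio of 5.53 (3.67 to 7.98), with 3 of the 13 in the richest spot. Tnfrsf13b, the receptor TACI, had 4 against 3 UMIs, a log2 ratio of 3.83 (1.27 to 6.60) given the smaller pool. Slamf7 had 3 against 5 (2.68, -0.01 to 5.04). Prdm1, the repressor that drives plasma cell formation, had 0 against 1. Pou2af1, a B cell coactivator, and Tnfrsf17, the receptor BCMA, had none in either group. Xbp1, the transcription factor of the secretory unfolded protein response, had 83 against 778 UMIs, a log2 ratio of 0.19 (-0.16 to 0.51). Sdc1 (CD138), a plasma cell surface marker that hepatocytes also make, had 173 against 1835 (0.01, -0.23 to 0.23). Of the 16 genes of the plasma cell list 7 could be compared and 2 were at least 2-fold higher, against 3.53% of all genes compared: Cd38 at 1.07 (0.46 to 1.65) and Tent5c at 1.01 (-0.13 to 2.0). The list's summed log2 ratio was 0.19 (0.05 to 0.32).

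As a sum, the secretory machinery that plasma cells share with hepatocytes did not differ beyond counting error. The 12 chaperones and folding enzymes of the endoplasmic reticulum summed to 1496 and 1455 CPM, a log2 ratio of 0.04 (-0.03 to 0.11), and none was 2-fold higher or lower. Hspa5 (BiP) stood at -0.00 (-0.20 to 0.19) and Hsp90b1 at -0.04 (-0.23 to 0.15). The stress-inducible protein Creld2, at 0.83 (0.12 to 1.47), and the secreted stress protein Manf, at 0.43 (0.03 to 0.82), were higher beyond counting error. Genes that carry antibody across cells, namely the polymeric immunoglobulin receptor Pigr and the Fc receptor Fcgrt, showed no 2-fold difference. Pigr was at 399 against 458 CPM (log2 ratio -0.20, -0.34 to -0.06) and Fcgrt at 0.07 (-0.17 to 0.31).

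B cell surface genes were sparse. The 15 genes of the B cell list had 43 UMIs in the immunoglobulin-rich spots and 161 in the lower-ranked spots, a log2 ratio of 1.51 (0.99 to 2.0). Ly6d, with 16 of the 43 UMIs, was the 1 gene with enough UMIs to be compared (1.06, 0.18 to 1.84). Without it, a value taken after the data were seen, the other 14 genes stood at 27 against 79 UMIs (1.87, 1.18 to 2.51). Among the genes of the list, Cd79b, part of the B cell receptor, had 7 against 5 UMIs, Fcmr, the Fc receptor for IgM, 5 against 4, Cd79a 3 against 4 and Ms4a1 (CD20) 3 against 5. Pax5, Ebf1, Cr2 and Cd22 had 0 in the immunoglobulin-rich spots, which allows up to 2.82 CPM each. More B cells and more RNA per cell cannot be told apart in such spots.

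Connective tissue genes were higher in the immunoglobulin-rich spots. The 19 portal fibroblast and collagen genes summed to 776 UMIs (729 CPM) against 2941 (259 CPM), a log2 ratio of 1.49 (1.38 to 1.61). At least 2-fold higher were 9 of the 10 compared, against 3.53% of all genes compared. The median of the 10 was 2.45, and that of all genes compared 0.07. Fbln1 and Col6a1, both among the 9, passed the minimum of 50 UMIs only through the immunoglobulin-rich spots. Col3a1, a fibrillar collagen, had 64 UMIs in 43 of the 105 spots, never more than 4 in 1 spot, and stood at 2.59 (2.13 to 3.05). Col1a1 was at 2.68 (1.97 to 3.36), Col1a2 at 2.56 (2.01 to 3.10), the matrix protein Dpt at 2.70 (2.0 to 3.37), Mgp, an inhibitor of calcification, at 2.33 (1.92 to 2.73) and Gsn, an actin-severing protein, at 2.15 (1.85 to 2.44). The exception was the proteoglycan Dcn at 0.72 (0.53 to 0.90), which also is made by stellate cells. The 10 stellate cell genes as a sum stood at 0.33 (0.17 to 0.49), with Cygb at 1.75 (1.04 to 2.42). Pdgfrb, with 14 against 41 UMIs, passed the minimum only through the immunoglobulin-rich spots.

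Vessel wall genes were higher too, in fewer spots. The 10 smooth muscle genes had 213 against 432 UMIs, a log2 ratio of 2.39 (2.15 to 2.63). The 5 compared were each at least 2-fold higher, where 3.53% of all genes compared were. Of these 5, Myh11 passed the minimum only through the immunoglobulin-rich spots. The list ranged from 1.48 to 2.47 over the alternative settings. Its genes were found in 34 of the 105 spots (32.4%) and in 20.3% of the lower-ranked spots. Acta2 (smooth muscle actin) stood at 2.83 (2.28 to 3.36), with between 1 and 7 UMIs in 16 spots, but at 1.26 when spots were drawn down to 3000 UMIs before they were chosen and at 1.91 when they were ranked by Jchain alone. Of the others, Myl9 stood at 2.65 (1.98 to 3.30), Myh11 at 2.63 (1.86 to 3.38) and Tagln at 2.49 (2.0 to 2.97). Vwf, the clotting factor of larger vessels, had 68 against 150 UMIs (2.27, 1.84 to 2.70). The large vessel endothelial list, with Vwf as 68 of its 119 UMIs, stood at 1.70 (1.39 to 2.0). Of its 4 genes compared 2 were at least 2-fold higher, against 3.53% of all genes: Vwf and Rspo3 (1.11, 0.26 to 1.87). Thbd, which passed the minimum only through the immunoglobulin-rich spots, stood at 0.95 (-0.34 to 2.06) and Wnt2 at -0.62 (-2.94 to 1.02). Sinusoidal endothelial genes as a sum did not differ beyond counting error, at 0.12 (-0.04 to 0.28). The 12 bile duct genes stood at 0.43 (0.24 to 0.62), with none of 3 compared 2-fold higher. The bile duct gene Spp1 had 46 of its 102 UMIs in the spot ranked 13, which also held 7 of the 8 UMIs of Epcam.

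The pooled collagen and smooth muscle lists were higher at either amount of immunoglobulin, but smooth muscle UMIs were uneven over the spots. The collagen list stood at 1.42 (1.25 to 1.58) in the 64 spots with 1 to 5 rule UMIs and at 1.55 (1.40 to 1.69) in the 41 with more, and the smooth muscle list at 2.63 (2.32 to 2.93) and 2.18 (1.85 to 2.49). The richest spot held 6 collagen list UMIs and no smooth muscle UMI. Of the 213 smooth muscle UMIs, 28 were in the spot ranked 80 and 23 in the spot ranked 46. A further 22 were in the spot ranked 25 and 18 in the spot ranked 45. A collagen or smooth muscle UMI was present in 93 of the 105 spots and a heavy chain UMI in 73, both in 71, and 10 spots held neither. Collagen list UMIs alone were in 87.6% of the immunoglobulin-rich spots and also in 76.2% of the lower-ranked spots. Whether the overlap exceeds what such shares give was not tested.

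**Figure D3:**
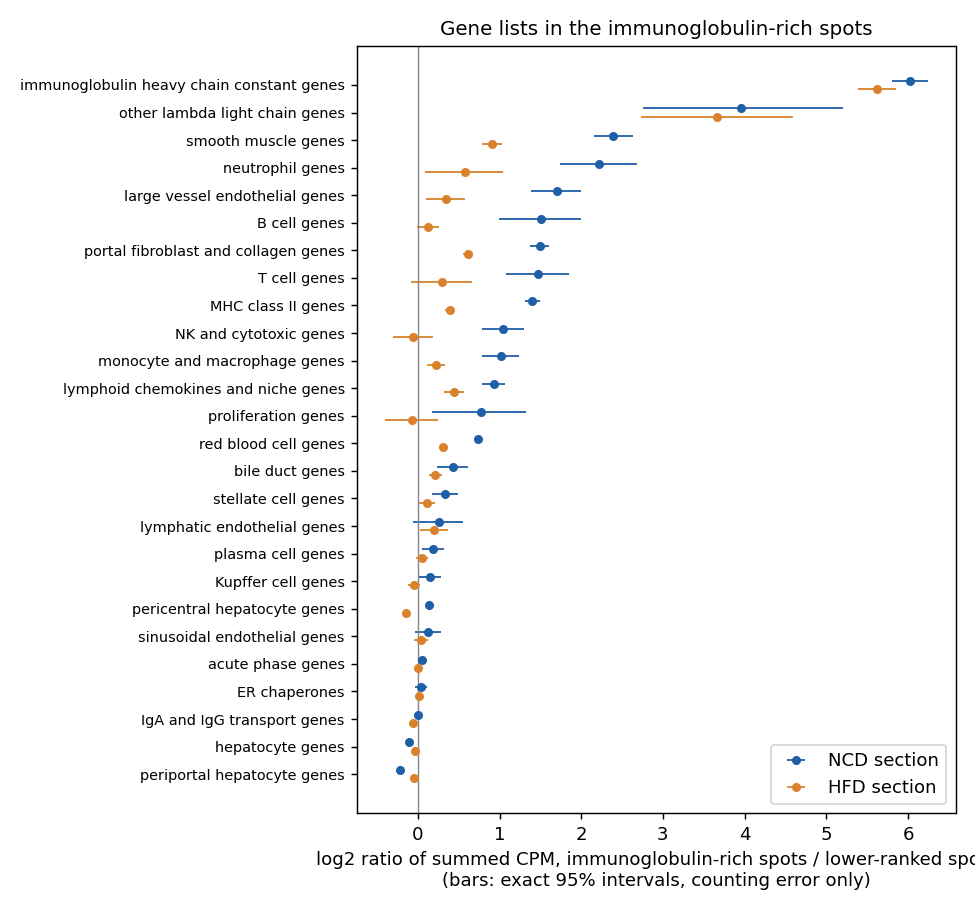
Log2 ratio of the summed CPM of each gene list, immunoglobulin-rich spots over the lower-ranked spots, in the NCD section (blue) and, by the same rule, in the HFD section (orange), with exact 95% intervals for counting error. In the NCD section the heavy chain list stands at 6.02, the smooth muscle list at 2.39 and the hepatocyte list at -0.10.

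Antigen presentation and lymphocyte genes were higher together. The 10 MHC class II genes, which present antigen on B cells, dendritic cells and macrophages, summed to 1081 against 409 CPM (log2 ratio 1.40, 1.31 to 1.5). The 6 compared were each at least 2-fold higher, where 3.53% of all genes compared were. That count does not hold with another ranking: by Jchain alone the list stood at 0.84, H2-Aa at 0.90, Cd74 at 0.75 and H2-Ab1 at 0.73, and by Igkc alone Cd74 stood at 0.98. With the 4 rule genes H2-Ab1 stood at 1.5 (1.29 to 1.70), H2-Eb1 at 1.49 (1.24 to 1.72), H2-Aa at 1.43 (1.24 to 1.62) and the invariant chain Cd74 at 1.24 (1.08 to 1.41). The highest Cd74 count was in the spot ranked 52, 26 UMIs beside 4 rule UMIs. The T cell list had 71 against 273 UMIs (1.47, 1.07 to 1.85) and stood at 0.86 ranked by Jchain alone. Its genes were sparse: Cd3d was at 1.86 (0.87 to 2.77), Trac at 1.68 (0.61 to 2.64), Trbc2 at 1.29 (0.19 to 2.25) and Trbc1 at 0.69 (-1.02 to 2.06). Cd3d, Trac and Trbc2, the 3 compared, each passed the minimum of 50 UMIs only through the immunoglobulin-rich spots, so a count of called genes says little here. Cd4 and Cd8a had 0 UMIs in the immunoglobulin-rich spots against 3 and 7 in the lower-ranked spots, too few to show a difference. Ccl5, a chemokine of cytotoxic cells, stood at 1.06 (0.79 to 1.33).

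A pair of chemokines that draw lymphocytes into tissue were among the highest genes. Ccl21a (chr4:42772860-42773993), made by lymphatic endothelium and lymphoid stroma, had 130 UMIs in 22 of the 105 spots against 151 UMIs in 41 of 1053 (log2 ratio 3.20, 2.85 to 3.55), with 27 in the spot ranked 14. Ccl19, which shares the receptor CCR7 with it, had 39 UMIs in 16 spots against 68 (2.61, 2.01 to 3.20). Both carry several gene identifiers under 1 symbol in the table, which were summed, and near-identical copies of Ccl21a share reads. Cxcl12, a plasma cell survival factor that sinusoidal cells also make, stood at 0.35 (0.16 to 0.53). Cxcl13, which draws B cells into follicles, had 6 against 33 UMIs (0.95, -0.59 to 2.23). Tnfsf13 went the other way, with 3 against 59 UMIs (-0.88, -3.20 to 0.73). All 16 lymphoid chemokine and niche genes as a sum stood at 0.93 (0.78 to 1.07). Of the 4 compared 2, Ccl21a and Ccl19, were at least 2-fold higher, where 3.53% of all genes compared were. The lymphatic endothelial list, Lyve1 and Prox1 among it, was at 0.25 (-0.06 to 0.55), while its member Mmrn1 had 9 against 21 UMIs (2.19, 0.88 to 3.38).

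Myeloid genes differed by type. The 12 Kupffer cell genes summed to 498 and 448 CPM (log2 ratio 0.15, 0.02 to 0.28), none of them 2-fold apart, and their defining gene Clec4f stood at -0.35 (-0.82 to 0.08). The monocyte and macrophage list stood at 1.02 (0.79 to 1.24), with none of the 3 genes compared 2-fold higher: Lyz2 was at 0.87 (0.58 to 1.15), Plac8 at 0.67 (-0.07 to 1.33) and Cd68 at -0.12 (-1.28 to 0.86). Among its sparser genes Itgam, F13a1 and Chil3 had 0 UMIs in the immunoglobulin-rich spots against 2, 3 and 2, too few to show a difference. Ly6c2, a marker of circulating monocytes, had 16 against 17 UMIs (3.33, 2.25 to 4.4) and S100a4 22 against 25 (3.23, 2.33 to 4.12). The neutrophil list stood at 2.22 (1.73 to 2.69) but came from few spots: of 38 UMIs of S100a9 16 were in the spot ranked 72, without which S100a9 stood at 1.90 (1.13 to 2.61). Ranked by Jchain, Iglc1 and Iglc2 the list stood at 0.13 and S100a9 at 0.44.

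Ordered by the lower bound of the interval, the 15 highest genes were Ighm, Ighg2c, Igha, Ighg2b, Slpi, Ccl21a, Cavin3, Acta2, Ccl8, Col3a1, S100a9, Cd200, Col1a2, Ccl19 and Tagln. Ighg2b, Slpi, Cavin3 and Ccl8 passed the minimum of 50 UMIs only through the immunoglobulin-rich spots. Slpi (chr2:164354070-164389095), a secreted inhibitor of neutrophil proteases, was the highest that is no immunoglobulin gene, with 46 UMIs in 14 of the 105 spots against 14 UMIs in 12 of 1053 (5.13, 4.24 to 6.11). It reached 15 UMIs in the spot ranked 7, 8 in the spot ranked 4 and 6 each in the richest and the spot ranked 11. Without the spot ranked 7 it stood at 4.57 (3.62 to 5.6). Cavin3, a coat protein of caveolae, had 23 UMIs in 19 spots and never more than 2 in 1 spot (3.18, 2.31 to 4.04). Ccl8, a chemokine of tissue macrophages, stood at 2.95 (2.21 to 3.68) and Cd200, an inhibitory ligand for myeloid cells, at 2.68 (2.04 to 3.30). Leaving out the spot with most UMIs of each gene kept all 15 lower bounds above 0, but took Ighg2b, with 82 of its 117 UMIs in the spot ranked 11, to 3.87 (3.10 to 4.66).

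**Figure D4:**
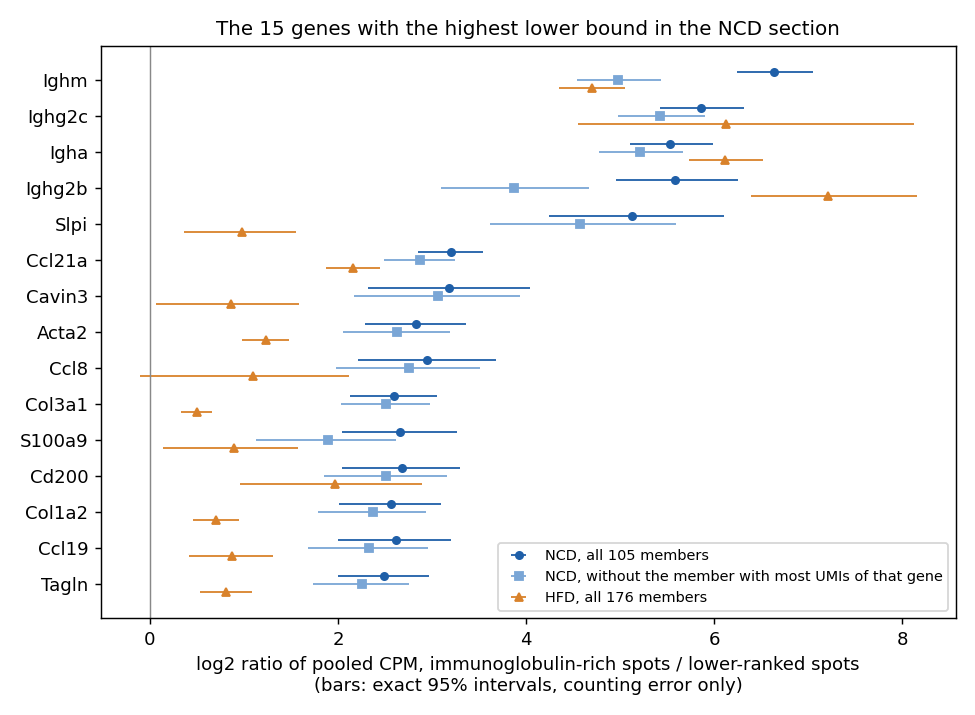
Log2 ratio of pooled CPM, immunoglobulin-rich spots over the lower-ranked spots, for the 15 genes with the highest lower bound in the NCD section, with all 105 spots (circles), without the spot that held most UMIs of that gene (squares), and in the HFD section by the same rule (triangles). Bars are exact 95% intervals for counting error; Slpi stands at 5.13 in the NCD section and at 0.98 in the HFD section.

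Hepatocyte genes were slightly lower. The 10 hepatocyte genes stood at -0.10 (-0.11 to -0.10), Alb at -0.12 (-0.13 to -0.10) and Cyp2e1 at 0.03 (-0.00 to 0.06), and none was 2-fold apart. The periportal list was at -0.21 (-0.25 to -0.18), with the urea cycle enzymes Ass1 at -0.29 (-0.35 to -0.22) and Cps1 at -0.20 (-0.27 to -0.13). The pericentral list was at 0.13 (0.11 to 0.16), with Glul at 0.42 (0.32 to 0.52) and Oat at 0.36 (0.30 to 0.41). Axin2, a target of Wnt signalling, was at 1.21 (0.22 to 2.09). It was the 1 gene of 11 compared that was 2-fold higher, against 3.53% of all genes compared. At least 2-fold lower were 204 of the 8600 genes (2.37%). The 10 with the lowest upper bound were Cd99l2, Gm4951, Tbl2, Dennd4a, Sult2a7, Mup7, Gstp1, 2700062C07Rik, Mup17 and Mup10. Most rested on few UMIs: Cd99l2 had 1 against 124 (-3.54, -8.85 to -1.04), and Sult2a7, a sulfotransferase, had 0 against 59, at least 1.84-fold lower than in the lower-ranked spots. The abundant ones were not 2-fold apart: the major urinary protein gene Mup7, which has near-identical copies, stood at -0.58 (-0.67 to -0.50) and the detoxification enzyme Gstp1 at -0.69 (-0.90 to -0.48).

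The differences in detection remained when every spot was drawn down to 3000 UMIs. Col3a1 was then detected in 19.0% of immunoglobulin-rich spots (12 to 27.9) and 2.18% of the lower-ranked spots (1.39 to 3.26), against 41.0% and 9.02% undrawn. Ccl21a was detected in 14.3% (8.22 to 22.5) and 1.90% (1.16 to 2.92), undrawn 21% and 3.89%. H2-Ab1 was detected in 45.7% (36.0 to 55.7) and 21.5% (19.0 to 24.1), undrawn 65.7% and 47.0%. Ighm was detected in 16.2% (9.72 to 24.6) and 1.33% (0.73 to 2.22), undrawn 26.7% and 4.94%. Trbc2 was then in 1 of 105 spots, and a difference was not detectable at that depth.

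**Figure D5:**
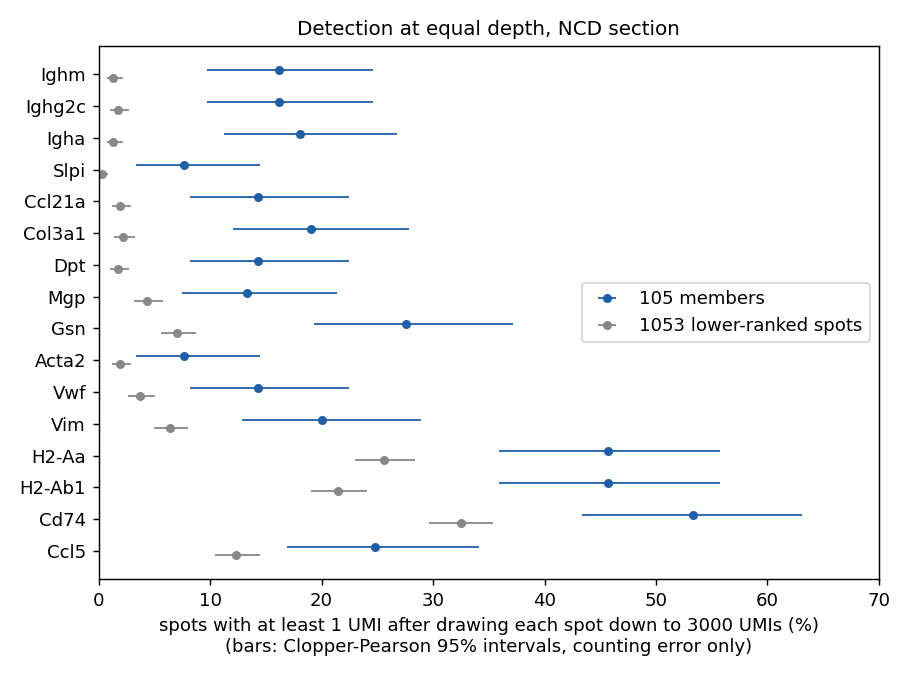
Share of spots (%) with at least 1 UMI of each gene after every spot was drawn down to 3000 UMIs, in the 105 immunoglobulin-rich spots (blue) and the 1053 lower-ranked spots (grey) of the NCD section, with Clopper-Pearson 95% intervals for counting error. Col3a1 is at 19.0% and 2.18%.

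Over the 105 spots 3 heavy chain genes had the highest Pearson correlation with the rule genes, a place that Ighm held through the richest spot. Among 3845 genes with a UMI in at least 20 of the spots, the Pearson correlation of log2(CPM + 100) with the summed rule genes was highest for Ighg2c (0.60), Igha (0.59) and Ighm (0.58), followed by Lpl (0.41), Ly6a (0.38), Creld2 (0.38), Ybx3 (0.38), Scand1 (0.37), Dpt (0.36) and Slc38a10 (0.36). Without the richest spot Igha was at 0.59 and Ighg2c at 0.57, while Ighm, at 0.37, was below Ly6a at 0.40. Lpl was then at 0.38, Ybx3 and Dpt at 0.34, Scand1 at 0.32, Slc38a10 at 0.27 and Creld2 at 0.24. Spearman's rho was 0.39 for Igha, 0.38 for Ly6a, 0.33 for Ighg2c and 0.16 for Ighm. These points share 1 section and 1 library and have sparse counts, so the values are a description.

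The same rule in the HFD section gave 176 of 3538 spots, less rich than the NCD ones. They held 1283 rule UMIs, 1 to 115 per spot with a median of 2, and their richest spot had 0.342% of its UMIs in the rule genes. Depth differed more here, with medians of 11682 UMIs in the 176 spots and 18074 in the 1769 spots of the lower-ranked spots. The lambda genes had another order: Iglc2 had 214 UMIs and Iglc1 31 in the HFD spots, where the NCD spots had 23 and 2201. Lambda genes took 23.2% (20.7 to 25.7) of light chain UMIs. Igha led the heavy chain UMIs of the HFD spots with 47.6%, then Ighm with 29.0% and Ighg2b with 20.3%, while Ighg2c had 2.94%. These shares also hang on single spots. Of the 340 Igha UMIs, the HFD spots ranked 1 and 2 held 86 and 89. In the NCD section the richest spot held 370 of the 540 Ighm UMIs.

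Single spots again mostly held 1 class. In all 19 HFD spots with 10 or more heavy chain UMIs at least 90% came from 1 gene, and 17 of the 19 passed 90% for both heavy and light chains. Jchain reached 26.2 UMIs per 100 heavy chain UMIs in the 6 of them led by Igha, 10.3 in the 6 led by Ighm and 9.57 in the 7 led by an Ighg gene. The heavy chain list stood at 5.62 (5.39 to 5.85). All 3 genes compared were at least 2-fold higher, where 1.60% of 11450 genes were, and 1.73% were 2-fold lower. Of the 3 compared, Ighg2b, with 145 against 13 UMIs, passed the minimum of UMIs per gene only through the HFD immunoglobulin-rich spots.

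The surrounding genes stood apart less in the HFD section. The collagen list was at 0.61 (0.55 to 0.67), with 7 of 17 genes compared at least 2-fold higher. The smooth muscle list was at 0.91 (0.78 to 1.04) with 5 of 9, and the MHC class II list at 0.39 (0.34 to 0.45) with 0 of 7. Of all genes compared in that section, 1.60% were at least 2-fold higher. The T cell list was at 0.30 (-0.09 to 0.67). The collagen list took 653 CPM in the HFD lower-ranked spots and 259 CPM in the NCD ones. Ccl21a stood at 2.16 (1.87 to 2.45), and Mzb1 had 19 UMIs in the HFD spots (3.89, 2.87 to 4.93). The B cell list stood at 0.13 (-0.01 to 0.26), with Ly6d holding 5669 of its 5940 UMIs in the HFD lower-ranked spots. Without Ly6d the list stood at 0.82 (0.27 to 1.32). With 1 mouse per diet, diet, mouse, slide and depth cannot be told apart, and the difference between sections was not tested.

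Immunoglobulin RNA was also present outside the chosen spots. The 2002 other NCD spots with 3000 or more UMIs held 720 rule UMIs (27.5 CPM), never more than 8 in 1 spot. The 1300 spots of the capture area off tissue, with a median of 3383 UMIs, held 710 (103 CPM, 95.9 to 111), and 25.8% of them had at least 1. The 1585 spots over tissue with fewer than 3000 UMIs held 469 (264 CPM). The hepatocyte list stood at 136262 CPM off tissue. Of the 2002 spots, 26.0% had at least 1 rule UMI. The part of free RNA in the spots with 1 to 5 rule UMIs was not tested. Spot positions were not used here, so the neighbours of the richest spots were not analysed.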

How the data were processed

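The deposited files hold raw UMI counts per gene and spot, which the authors made with Space Ranger 1.3.1 (alignment, counting and calling of spots over tissue) and did not normalise. Per the labels the build was mm10, and the file headers give the same Space Ranger version. Spot positions were not used here. Of 32285 gene identifiers 32158 are in GENCODE M21, and counts of identifiers with the same symbol were summed. The slides share all 4992 spot barcodes by design, 3173 of them over tissue in both.

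Members and gene lists were chosen with earlier results of these data known. Counts of a gene or list were pooled over spots and divided by all their UMIs. Ratios have exact conditional binomial intervals, shares Clopper-Pearson intervals and counts Poisson intervals, all at 95%. Only the ratio intervals were tried on simulated data, pooled Poisson counts with known changes. Clumping of UMIs in single spots was not simulated. Intervals cover counting error only. A gene was compared with 50 or more UMIs over both groups, the 4 rule genes being left out, and called at 2-fold. A limit for a count of 0 used 3 counts. Genes named were the rule genes, the list members that define a list or lie at its ends, the 15 with the highest lower and the 10 with the lowest upper bound, and the 10 most correlated with the rule genes. Others were named after their values were seen: the genes chosen to be shown at equal depth, and Ly6d left out of its list. Alternatives changed the share of spots, minimum depth, reference, ranking genes, weighting, total, drawn depth, richest spots left out and gene minimum. Tables were made with scipy 1.17.1, pandas 2.3.3 and numpy 2.4.6 in Python 3.11.15, and plots with matplotlib 3.10.9.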

Additional observations from a re-analysis of the deposited data

Results flagged for a closer look

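The pericentral hepatocyte list moved in opposite directions in the sections, with a log2 ratio of immunoglobulin-rich spots to the lower-ranked spots of 0.13 (0.11 to 0.16) in the NCD section and -0.15 (-0.17 to -0.13) in the HFD section. Oat stood at 0.36 (0.30 to 0.41) and -0.42 (-0.49 to -0.35), Glul at 0.42 (0.32 to 0.52) and -0.19 (-0.28 to -0.09), and Cyp2a5 at 0.31 (0.18 to 0.43) and -0.30 (-0.43 to -0.17). The difference between sections was not tested.

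Immunoglobulin RNA appeared in spots that the main comparison did not use. The NCD spots off tissue held 710 rule UMIs in 6870975, where the 1398 spots off tissue of the HFD slide held 26 in 2177155. Their richest spot had 111 rule UMIs in 10090, with 73 of Ighg2c, 78 of Igkc and 30 of Iglc1. The next had 52 in 15132, with 20 of Igha, and another 42 in 17940, with 64 of Ighg2c and 39 of Igkc.

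The NCD spots over tissue below 3000 UMIs held 469 rule UMIs, of which 154 were in 1 spot of 1704 UMIs and 145 in 1 spot of 2968 UMIs. In both, nearly all were Iglc1 (144 and 136 UMIs) with no Igkc, beside 42 and 7 UMIs of Ighg3. With a minimum of 1000 UMIs per spot they would have been next after the richest spot.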

How the results depend on the processing

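No paired analysis was possible because each diet has 1 section and no result comes from a test. Values here are log2 ratios unless counts of genes are named. The heavy chain list stayed at 4.69 or above under all 18 alternatives. It was 7.29 with the top 2% of spots and 5.12 with the top 10%, 5.63 against all other spots, 5.62 ranked by Igkc alone, 4.73 by Jchain alone and 5.75 by Jchain, Iglc1 and Iglc2, and 4.69 without the 10 richest spots. The sum of the portal fibroblast and collagen genes was 1.91 with the top 2%, 1.16 with the top 10%, 1.31 in spots with 6000 or more UMIs, 1.22 ranked by Igkc alone and 0.92 by Jchain alone. The B cell list was 2.08 with the top 2%, 2.16 with spots drawn down to 3000 UMIs and 0.11 ranked by Jchain alone. The plasma cell list was 0.01 ranked by Jchain, Iglc1 and Iglc2. The hepatocyte list stayed below 0, at -0.20 with the top 2%, -0.09 with the top 10%, -0.12 against all other spots, -0.08 by Igkc alone, -0.05 by Jchain alone, -0.14 by Jchain, Iglc1 and Iglc2, -0.12 as a mean over spots, -0.12 drawn down, -0.15 without abundant genes in the total and -0.09 without the 10 richest spots.

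The number of genes at least 2-fold higher (304) was 652 with the top 2%, 170 with the top 10%, 639 against all other spots, 127 by Jchain alone, 155 drawn down, 733 with a minimum of 20 UMIs per gene and 45 with 200. The number of genes at least 2-fold lower (204) was 677, 72 and 448 in the first 3 of these, 363 as a mean over spots, 500 with 20 UMIs and 6 with 200.

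Alternatives chosen after seeing the data gave 5.46 for the heavy chain list without the richest spot, 5.27 without the 3 richest and 5.76 with spots drawn down before they were chosen. The hepatocyte list was then -0.09 without the 3 richest and -0.12 drawn down first, and 102 genes were 2-fold higher. Tbl2, with 1 UMI in the immunoglobulin-rich spots, stood at 0.80 instead of -3.06 with spots drawn down first. The cause was not tested. Of the values of the results above, 85 stayed close to the main one and 45 moved beyond the counting interval or, for counts of genes, by over 1.5 times. Of those of single genes and other lists, 869 stayed within the counting interval, 201 moved beyond it and 1, that of Tbl2, went from 2-fold lower to higher. Values near 0 changed sign under some alternatives, the lymphatic endothelial list (0.25) reaching -0.12. Depth limits the lists with few UMIs, such as the B cell list with 43.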

Other observations

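Red blood cell genes had uneven values over the immunoglobulin-rich spots. The 5 genes took 0 to 112150 CPM per spot with a median of 1745, against a median of 745 in the lower-ranked spots, where the highest spot had 147875 CPM. Hba-a1 stood at a log2 ratio of 0.73 (0.67 to 0.78) and Alas2, the heme synthesis enzyme of red cell precursors, at 0.20 (-0.16 to 0.55).

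Among acute phase genes Saa2 was the 1 of 10 at least 2-fold higher in the NCD spots, where 3.53% of all genes compared were, at 1.05 (0.66 to 1.42), with 12 of its 71 UMIs in the spot ranked 100th, and Saa1 stood at 0.72 (0.48 to 0.95). The list as a sum was at 0.06 (0.02 to 0.09), and Orm1 at -0.16 (-0.27 to -0.06).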
